A study of Mus musculus with 12 samples.

Results

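The 10 genes described here encode parts of the cytoskeleton and granule machinery with which megakaryocytes (MKs) make platelets. They are Tubb1, Myh9, Myl9, Flna, Tln1, Fermt3, Actn1, Diaph1, Nbeal2 and Plek. They were listed by name, with earlier results of these data known, and matched by symbol to the Ensembl identifiers of a table of 55536 genes. The matching rule itself used no measured value. All 10 had enough reads to be tested, as had 20263 genes of the table in all.

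RNA was sequenced from MKs of C57BL/6 mice in 4 groups of 3 libraries. The groups were bone marrow (BM) after saline, BM after sepsis, spleen after saline and spleen after sepsis, each taken at day 5 after the injection, and sepsis was induced by an intraperitoneal injection of cecal slurry. Each library held 300 cells sorted as CD45+ Lineage- Pf4-tomato+ CD41+ CD42b+, and the study's methods describe young adult mice of both sexes. All groups carried the same reporter, in which Cre under the Pf4 promoter switches on TdTomato, so a cell that has ever used that promoter can be labelled. The methods call the 3 libraries of a population independent replicates; nothing in the labels says which libraries, if any, came from the same animal.

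An MK makes platelets by extending long proplatelets into a sinusoid. Microtubules built from beta-1 tubulin form the shaft and slide to lengthen it, while actin, non-muscle myosin IIA and the membrane skeleton shape the demarcation membranes from which proplatelets grow. Integrins tied to actin by talin and kindlin hold the cell to its matrix, and granules are loaded before they travel along the microtubules. Inherited defects of TUBB1, MYH9, FLNA, ACTN1, DIAPH1 and NBEAL2 cause low counts of enlarged platelets in people.

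Total counts ran from 7756762 to 27386184 per library, and 17502 to 24248 genes were detected in each. The sorted identity was checked with 13 MK and platelet markers, whose summed level was 11951 to 48807 CPM (read counts scaled to a common library size with TMM factors) in the BM libraries and 1236 to 3594 CPM in the splenic ones. None of these 13 markers was at 0 in all libraries of any group. Pf4, the chemokine whose promoter labels the cells, was 18663 ± 1680 CPM (SD, n = 3) in BM after saline and 1175 ± 1096 CPM in spleen after saline. Gp1ba, which encodes the CD42b of the sort, was 40.4 ± 15.3 CPM in BM after saline and 2.44 ± 3.75 CPM in spleen after saline, where 1 of 3 libraries held no more than 3 reads. The 10 B cell markers summed to 134 to 1208 CPM in BM and 22805 to 64615 CPM in spleen, and the 6 plasma cell markers to 1479 to 4690 CPM in BM and 7463 to 80709 CPM in spleen. Between the tissues, fewer cells of a type and less RNA of a gene per cell cannot be told apart in these libraries. The tissue and the share of lymphoid transcripts cannot be told apart either, since no splenic library had as few B cell transcripts as any BM library. After saline the 6 basophil and mast cell markers summed to 4845 to 28667 CPM in BM and 2657 to 4409 CPM in spleen. After sepsis the sums were 2687 to 6576 CPM in BM and 40.6 to 678 CPM in spleen. Averaged over both treatments, 3 of these 6 markers were called higher in BM and 0 lower, where 2.07% of all genes tested were called higher and 2.68% lower. Of the 13 MK and platelet markers 7 were called higher and 0 lower. Of the 10 B cell markers 10 were called lower, and of the 6 plasma cell markers 4, with 0 higher in both lists. Under each treatment the tissue and the basophil and mast cell transcripts cannot be told apart, and their part in the levels of the 10 genes was not tested.

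Levels of different genes were compared as CPM per kb of exon, which takes out gene length. In BM after saline Plek was the most abundant of the 10 genes (261 ± 11.2 CPM per kb), followed by Myl9 (207 ± 93.3 CPM per kb). Fermt3 (33.4 ± 5.71), Tln1 (25.4 ± 1.33) and Flna (24.9 ± 7.28 CPM per kb) came next. Tln1 and Flna did not differ beyond their spread. Diaph1 (12 ± 1.71), Myh9 (11.2 ± 1.33) and Actn1 (8.34 ± 5.29 CPM per kb) followed and also lay within each other's spread. With the longest transcript in place of all exons Fermt3 was at 64.6 and Myh9 at 19.5 CPM per kb, and Myh9 then stood above Diaph1 (13.2 CPM per kb). Tubb1 (3.75 ± 3.26) and Nbeal2 (2.52 ± 0.965 CPM per kb) were last. In spleen after saline Myl9 (73.9 ± 69.0 CPM per kb) and Plek (62.9 ± 42.6 CPM per kb) again stood at the head, Flna (15.0 ± 6.79 CPM per kb) came next, and Myh9 (7.89 ± 2.48), Tln1 (7.30 ± 4.11) and Fermt3 (5.69 ± 4.21 CPM per kb) lay within each other's spread. The top pair and the bottom pair were the same in all 4 groups.

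**Figure D1:**
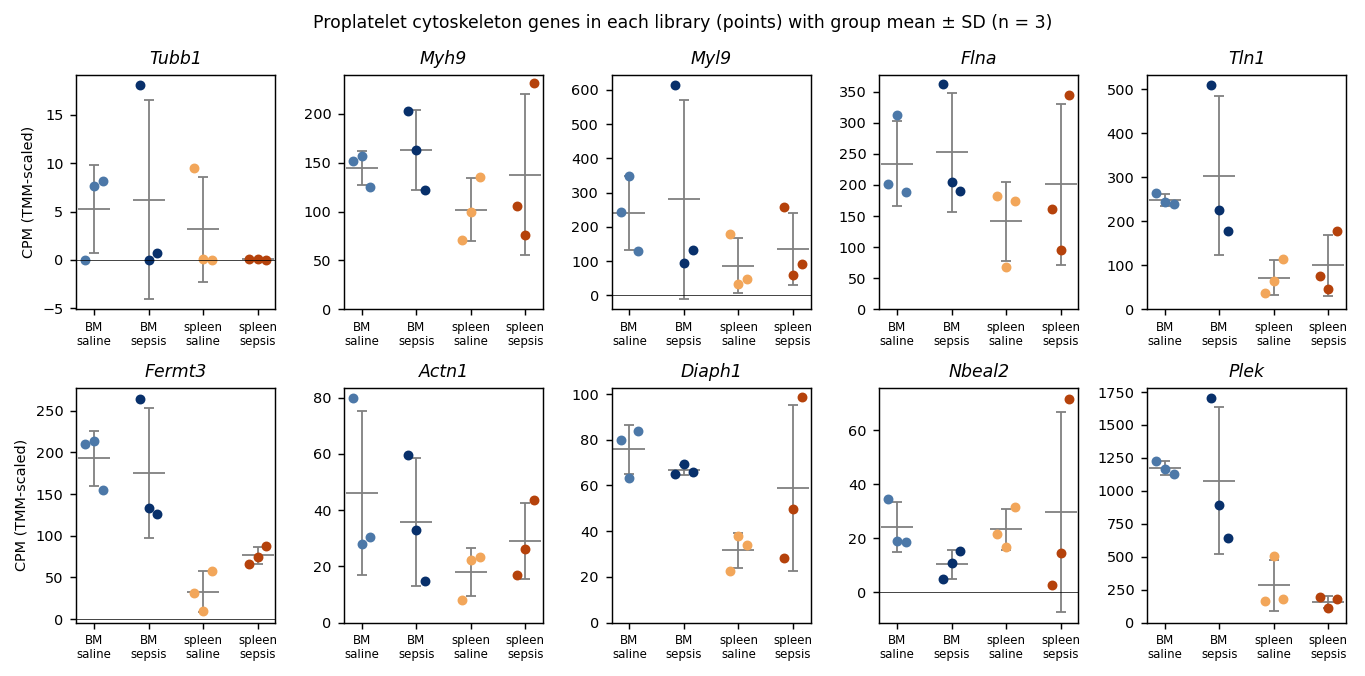
Level of each gene in CPM (TMM-scaled, vertical axis) in the 12 libraries, with points for libraries and a grey bar for the group mean ± SD (n = 3). For Plek, Fermt3 and Tln1 every BM point lies above every splenic point, whereas Tubb1 scatters between 0 and 18.1 CPM within groups.

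The first comparison asked how MKs of the 2 tissues differ. Plek, Fermt3 and Tln1 were higher in BM MKs than in splenic MKs when the tissue difference was averaged over both treatments, by 2.41 ± 0.39, 1.87 ± 0.44 and 1.70 ± 0.44 on the log2 scale (estimate ± SE; edgeR quasi-likelihood test with Benjamini-Hochberg adjustment over all genes, adjusted p = 0.000667, 0.0161 and 0.0276, respectively). The other 7 genes did not pass the threshold of 0.05. Thus 3 of 10 genes were called higher and 0 lower, where 2.07% of all genes tested were called higher and 2.68% lower. The median log2 difference was 1.05 over the 10 genes and -0.13 over all genes tested. After saline alone 0 of the 10 were called (0.523% of all genes higher and 0.725% lower), with 3 of the 10 at an unadjusted p under 0.05. With DESeq2 1 of the 10, Fermt3, was called after saline, and with limma-voom 0. After sepsis 1 of the 10, Plek, was called (0.597% of all genes higher and 1.18% lower).

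The same 3 genes were those whose 6 BM libraries all lay above the 6 splenic libraries, a pattern that 2.56% of all genes tested showed. After saline the 3 BM libraries lay above the 3 splenic ones for 6 of the 10 genes, Flna, Tln1, Fermt3, Actn1, Diaph1 and Plek, against 11.3% of all genes. After sepsis they did so for 3 of the 10, against 11% of all genes.

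**Figure D2:**
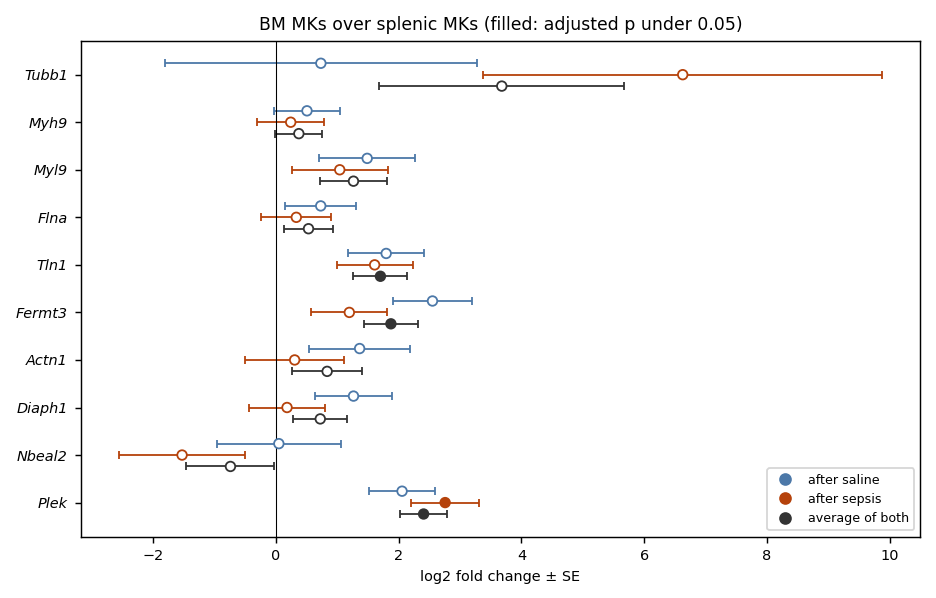
Log2 fold change of BM over splenic MKs ± SE (horizontal axis) for each gene after saline, after sepsis and averaged, with filled points for an adjusted p under 0.05. The 4 filled points are Plek after sepsis and the averages of Plek, Fermt3 and Tln1.

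Plek encodes pleckstrin, the major substrate of protein kinase C in platelets, which binds phosphoinositides. It was at 1226, 1168 and 1125 CPM in the BM saline libraries and at 1701, 894 and 638 CPM in the BM sepsis libraries. Spleen held 167, 503 and 177 CPM after saline and 190, 107 and 181 CPM after sepsis. The highest splenic library therefore stayed below the lowest BM library, and the 3 BM saline libraries were close together. Its log2 difference between tissues was 2.06 ± 0.54 with saline (edgeR, adjusted p = 0.0743). With sepsis it was 2.76 ± 0.56 (adjusted p = 0.0121). The saline value passed the threshold in 10 of 23 alternative fits, and the sepsis value missed it in a fit of only the 2 groups compared (adjusted p = 0.0541). Plek2, its paralog, was at no more than 2.87 CPM in any library. Of the 9 genes of the pleckstrin and kinase list 8 were tested. On average 0 were called higher and 1 lower in BM, beside 2.07% and 2.68% of all genes. The gene called lower was Prkcb, a protein kinase C isoform that B cells also use. Prkcb was at 14.5 to 32.6 CPM in BM and 92.8 to 383 CPM in spleen (-3.14 ± 0.42 on the log2 scale, adjusted p = 0.000105).

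Fermt3 encodes kindlin-3, the blood cell kindlin that activates integrins from inside the cell. BM libraries held 210, 214 and 155 CPM after saline and 265, 133 and 126 CPM after sepsis, and splenic libraries 31.6, 9.24 and 57.9 CPM after saline and 66.6, 74.7 and 87.5 CPM after sepsis. The BM libraries did not overlap the splenic ones under either treatment. Under saline its log2 difference was 2.55 ± 0.65 (adjusted p = 0.06), called in 9 of 23 alternative fits, and under sepsis 1.20 ± 0.62 (adjusted p = 0.394). Leaving out BM sepsis replicate 1, the highest BM library, took the averaged call away (1.68, adjusted p = 0.0614). The related kindlin genes Fermt1 and Fermt2 had reads in too few libraries to be tested. Spleen saline replicate 2 was the exception, with 31.7 CPM of Fermt2 and 11.1 CPM of Fermt1, and there Fermt3 made up 16.5% of the family per kb, against at least 96.9% in the other 11 libraries.

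Tln1 encodes talin-1, which links integrin tails to actin and switches the integrins on together with kindlin. It stood at 263, 245 and 238 CPM in BM after saline and at 510, 225 and 177 CPM in BM after sepsis. In spleen it was at 36.0, 63.6 and 115 CPM after saline and at 76.6, 45.5 and 177 CPM after sepsis. The lowest BM value (177.2 CPM) and the highest splenic value (176.7 CPM) nearly touched. The averaged call was lost with relative log expression factors (1.5, adjusted p = 0.0563), with DESeq2 (adjusted p = 0.0925), without BM sepsis replicate 1 (1.44, adjusted p = 0.109) and without spleen sepsis replicate 2 (1.63, adjusted p = 0.0504). Without spleen sepsis replicate 3 the difference was 2.08 (adjusted p = 0.00251).

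Integrin partners of talin and kindlin were called in the direction of BM only. Of 20 listed genes 17 were tested, and 5 were called higher in BM on average and none lower. Over all genes tested 2.07% were called higher and 2.68% lower. The median log2 difference of the list was 1.25 beside -0.13 over all genes. Rap1b, the small GTPase upstream of talin, was at 2620 to 4607 CPM in BM and 355 to 1256 CPM in spleen (2.2 ± 0.32, adjusted p = 0.00023). Lims1, the adaptor PINCH-1, was at 476 to 1032 CPM in BM and 19.9 to 208 CPM in spleen (2.61 ± 0.49, adjusted p = 0.00253). Zyx, which encodes the focal adhesion protein zyxin, was at 186 to 360 CPM in BM and 22.7 to 118 CPM in spleen (2.05 ± 0.40, adjusted p = 0.0034). None of these 3 genes had overlapping tissues. Itgb3, the beta-3 chain of the fibrinogen receptor, and Parvb were the other 2. Ilk, the kinase that binds PINCH and parvin, was listed at 0 in every library, and 89.7% of its exonic bases overlap Rrp8 or Taf10 on the other strand.

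Promoter stretches are given for Fermt3 and Plek, which were both called, and for Myl9, the one member with a CArG box. RefSeq windows of 250 bases before to 50 after the gene start (GRCm38.p6) were matched for 9 of 10 members, Diaph1 being the one without an entry. Both strands were searched for the NF-E2 and AP-1 motif TGAGTCA, for AGATAA of the GATA1 family, for the ETS motif GGAAGT, for the RUNX motif TGTGGT, for the Sp1 motif GGGCGG and for the CArG box of serum response factor. In the stretches below capitals mark such matches, and no stretch overlaps an annotated exon. The Fermt3 stretch, with a pair of RUNX matches, is chr19:7019470-7019569 on the minus strand. The Plek stretch, with none, is chr11:17008719-17008818 on the minus strand, before a RefSeq start that lies inside the longest annotated gene span (its first annotated exon base is 17052381). The Myl9 stretch, with a CArG box and an Sp1 match on the other strand, is chr2:156775244-156775343 on the plus strand and begins 220 bases before the start.
Fermt3: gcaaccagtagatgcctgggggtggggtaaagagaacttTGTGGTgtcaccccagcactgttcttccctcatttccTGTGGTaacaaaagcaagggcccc
Plek: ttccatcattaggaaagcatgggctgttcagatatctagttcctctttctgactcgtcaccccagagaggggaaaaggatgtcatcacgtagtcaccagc
Myl9: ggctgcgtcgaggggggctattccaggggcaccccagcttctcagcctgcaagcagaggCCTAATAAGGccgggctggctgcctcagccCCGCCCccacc

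A RUNX match was in the window of 1 member, Fermt3, and in 16.8% of 32851 windows of all genes. The CArG box was in 1 member, Myl9, and in 1.63% of all windows. ETS matches were in 3 members, Tln1, Nbeal2 and Actn1 (23.8% of all windows), and Sp1 matches in 5 (35.7%). No member window held TGAGTCA (5.2% of all windows) or AGATAA (11.2%), which says only that these letters were not in those windows.

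Tubb1 encodes beta-1 tubulin, the isotype of platelets and of the proplatelet shaft, and its counted level was low, at 0 to 18.1 CPM. The BM saline libraries held 0, 77 and 76 reads (0, 7.65 and 8.18 CPM) and the BM sepsis libraries 277, 0 and 19 reads (18.1, 0 and 0.667 CPM). In spleen there were 70, 1 and 0 reads after saline and 1, 1 and 0 reads after sepsis. At 3 reads or fewer, the upper limit that a count of 0 allows, lay 1 of the 3 libraries of each BM group, 2 of the splenic saline group and all 3 of the splenic sepsis group. The groups overlapped in every comparison. No tissue difference was called (3.68 ± 1.99 on average, adjusted p = 0.32, with a 95% interval from -0.23 to 7.59). None of its 1357 stretches of 50 bases occurs in the transcripts of another gene, so reads of that length could be told from those of other genes. In the GENCODE M21 annotation its exons hold 1406 bases, of which 1356 are coding. Reads from any longer untranslated part would not be counted for it under that annotation.

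Other beta-tubulins held most of the counted beta-tubulin level per kb in every library. Per kb of exon Tubb1 made up 0 to 4.05% of the 8 measured beta-tubulins in BM after saline, 0 to 7.3% in BM after sepsis, 0 to 15.7% in spleen after saline and 0 to 0.145% in spleen after sepsis. Tubb5, the common isotype of blood cells, led in every group with 93.0 CPM per kb in BM after saline, 152 in BM after sepsis, 55.5 in spleen after saline and 88.9 CPM per kb in spleen after sepsis. Its tissue difference did not pass the threshold (0.76 ± 0.46, adjusted p = 0.382). Tubb4b was second, at 76.3 to 131 CPM in BM and 25.7 to 58.5 CPM in spleen, with no overlap and an adjusted p of 0.0714 (1.31 ± 0.40). The first 90 bases of the coding sequences (GENCODE M21) show how readily the 3 genes can be told apart. Capitals in Tubb1 mark bases that differ in either of the others, and capitals in the others mark bases that differ from Tubb1.
Tubb1: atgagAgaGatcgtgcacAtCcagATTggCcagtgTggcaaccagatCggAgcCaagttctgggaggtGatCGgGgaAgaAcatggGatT
Tubb5: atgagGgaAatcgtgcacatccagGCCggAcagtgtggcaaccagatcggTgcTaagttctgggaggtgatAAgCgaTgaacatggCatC
Tubb4b: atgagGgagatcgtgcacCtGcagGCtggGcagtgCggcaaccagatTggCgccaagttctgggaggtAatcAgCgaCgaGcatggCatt

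Tubb5 differed from Tubb1 at 14 of these 90 bases and Tubb4b at 15. Over the whole coding sequence the identity of Tubb1 was 75.3% to Tubb5 and 75.2% to Tubb4b. Among the 18 listed tubulins and microtubule partners 17 were tested (median log2 difference 0.76). On average 2 were called higher in BM and none lower, beside 2.07% and 2.68% of all genes. Both were alpha-tubulins. Tuba8 was at 65.1 to 148 CPM in BM and 0.215 to 2.3 CPM in spleen (6.90 ± 0.75, adjusted p = 1.02e-05). Tuba4a, the alpha-tubulin known from platelets, was at 124 to 436 CPM in BM and 10.7 to 182 CPM in spleen (2.73 ± 0.53, adjusted p = 0.0036). Only spleen sepsis replicate 3 (182 CPM) reached into the BM range of Tuba4a.

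**Figure D3:**
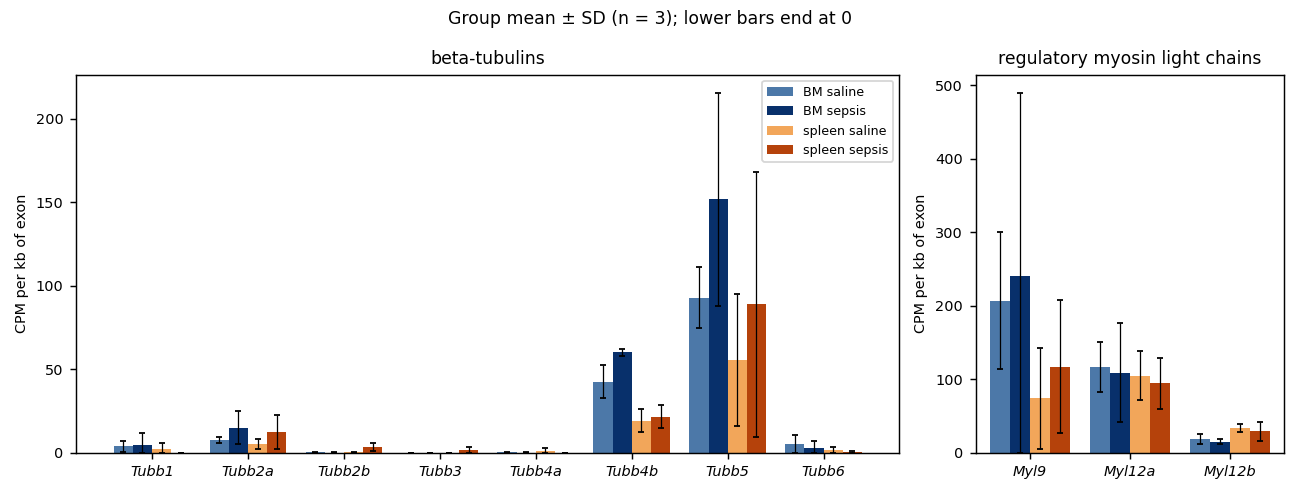
Level in CPM per kb of exon (vertical axis) of 8 beta-tubulins and 3 regulatory myosin light chains in the 4 groups, as bars for the group mean with SD (n = 3). Tubb5 is the tallest beta-tubulin in each group and Tubb1 is close to 0.

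Myosin IIA, whose heavy chain is encoded by Myh9, pulls on actin and restrains proplatelet release. Myh9 was at 152, 157 and 125 CPM in BM after saline, 203, 163 and 122 CPM in BM after sepsis, 71.1, 99.7 and 135 CPM in spleen after saline and 106, 76.2 and 231 CPM in spleen after sepsis. The groups overlapped, and the largest value of all 12 was spleen sepsis replicate 3. Its averaged tissue difference was 0.37 ± 0.38 (adjusted p = 0.619), with a 95% interval of -0.38 to 1.13. Myh9 made up 67.7 to 99.7% of the 3 non-muscle heavy chains per kb in every library, with Myh10 and Myh14 as the others.

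Myl9 encodes a regulatory light chain that myosin light chain kinase phosphorylates. Its BM libraries stood at 244, 347 and 130 CPM after saline and 613, 93.9 and 132 CPM after sepsis. In spleen they stood at 178, 32.8 and 46.7 CPM after saline and 256, 60.5 and 91.3 CPM after sepsis. The tissues overlapped under both treatments, and no difference was called (1.26 ± 0.55 on average, adjusted p = 0.218). The average passed the threshold when library size alone set the scale (adjusted p = 0.0321) and without spleen saline replicate 1 (adjusted p = 0.0376), and its estimate was 0.63 without BM sepsis replicate 1. Myl12a, a close relative found in most cells, was not called (0.18 ± 0.38, adjusted p = 0.842), with a 95% interval of -0.56 to 0.92. Per kb Myl9 held 50.6 to 64.5% of the 3 light chains in BM after saline and 17.8 to 45.9% in spleen after saline. After sepsis the tissues overlapped, at 50 to 72.8% in BM and 28.6 to 56.9% in spleen. The coding starts of the 3 genes are shown because Myl12a and Myl12b are 96.5% identical to each other and 85.5% and 86.3% identical to Myl9, with capitals used as above.
Myl9: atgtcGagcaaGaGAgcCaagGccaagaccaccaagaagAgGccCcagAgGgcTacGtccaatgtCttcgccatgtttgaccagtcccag
Myl12a: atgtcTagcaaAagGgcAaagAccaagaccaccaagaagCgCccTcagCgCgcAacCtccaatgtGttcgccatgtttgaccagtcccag
Myl12b: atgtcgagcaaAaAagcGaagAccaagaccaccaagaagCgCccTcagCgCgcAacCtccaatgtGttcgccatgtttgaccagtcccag

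No stretch of 50 bases of Myl9 occurs in another gene's transcripts. Stretches shared by Myl12a and Myl12b were not counted, so how well reads divide between those 2 is not known. Of the 15 genes of the myosin list all were tested (median log2 difference -0.34). On average 2 were called higher and 1 lower in BM, beside 2.07% and 2.68% of all genes. Mylk, the kinase for Myl9, was at 39.7 to 101 CPM in BM and 0.751 to 21.4 CPM in spleen (2.58 ± 0.66, adjusted p = 0.0272). Arhgap6, a GTPase-activating protein for RhoA, was higher by 2.78 ± 0.69 (adjusted p = 0.0221). Arhgef1, a RhoA exchange factor abundant in lymphocytes, was lower by -1.83 ± 0.44 (adjusted p = 0.0167).

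Flna, Actn1 and Diaph1 serve the actin network. Filamin A crosslinks actin and ties it to the glycoprotein Ib receptor, alpha-actinin-1 bundles filaments, and the formin mDia1 nucleates them and also acts on microtubules. Flna was at 201, 313 and 189 CPM in BM after saline, 363, 205 and 190 CPM in BM after sepsis, 182, 67.7 and 175 CPM in spleen after saline and 162, 94.9 and 346 CPM in spleen after sepsis. Its saline groups did not overlap, with 182 CPM as the highest splenic and 189 CPM as the lowest BM library, and the averaged difference was not called (0.53 ± 0.41, adjusted p = 0.492). Actn1 was at 79.9, 28 and 30.5 CPM in BM after saline, 59.7, 33.0 and 14.7 CPM in BM after sepsis, 8.11, 22.4 and 23.3 CPM in spleen after saline and 17.0, 26.3 and 43.6 CPM in spleen after sepsis. It was not called either (0.83 ± 0.57, adjusted p = 0.439).

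Diaph1 was at 80.0, 63.4 and 83.9 CPM in BM after saline and at 65.1, 69.2 and 65.7 CPM in BM after sepsis, the tightest BM values of the 10 genes after sepsis. Spleen held 22.7, 37.8 and 34.1 CPM after saline and 28.1, 49.5 and 98.9 CPM after sepsis. Its averaged difference was 0.72 ± 0.44 (adjusted p = 0.38). Diaph3, a related formin, did pass the threshold, by 2.58 ± 0.57 (adjusted p = 0.00964), with 28.9 to 89.6 CPM in BM and 2.36 to 32.7 CPM in spleen. Actn4 exceeded Actn1 per kb in BM after sepsis and in spleen after saline (9 and 4.75 CPM per kb against 6.47 and 3.24 CPM per kb), and in both groups the levels of the genes lay within their SDs of each other.

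The 39 genes of the actin list were all tested, and 2 were called higher and 3 lower in BM on average (2.07% and 2.68% of all genes), with a median log2 difference of -0.10. Cttn, which encodes the actin-branching regulator cortactin, was at 24.0 to 57.6 CPM in BM and 0 to 17.6 CPM in spleen (5.85 ± 1.03, adjusted p = 0.0016), and its 3 splenic sepsis libraries held at most 1 read. Capg, a barbed-end capping protein of myeloid and lymphoid cells, was lower in BM, at 10.9 to 38.5 CPM against 142 to 424 CPM in spleen (-3.57 ± 0.42, adjusted p = 2.99e-05). Coro1a, coronin 1A of leukocytes, was lower by -1.85 ± 0.37 (adjusted p = 0.00484), as was Rac2, a small GTPase of blood leukocytes, by -1.73 ± 0.37 (adjusted p = 0.00752). Capg, Coro1a and Rac2 were higher in the tissue with the higher B cell marker sums given above, and the part of those cells in the difference was not tested.

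Nbeal2 encodes neurobeachin-like 2, needed to retain alpha-granule proteins. It was at 34.7, 19.1 and 18.4 CPM in BM after saline and at 4.82, 10.6 and 15.3 CPM in BM after sepsis. In spleen it was at 21.5, 16.7 and 31.6 CPM after saline and at 2.62, 14.6 and 71.8 CPM after sepsis. It was the only one of the 10 genes with a negative averaged tissue estimate (-0.74 ± 0.72, adjusted p = 0.593), which was 0.18 without spleen sepsis replicate 3, the library at 71.8 CPM. Its related genes Lrba (18.8 to 31.3 CPM in BM after saline) and Nbea were not called on average (adjusted p = 0.922 and 0.875).

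Of 31 other granule genes, all tested, 5 were called higher and 1 lower in BM on average (median log2 difference 0.20), beside 2.07% of all genes higher and 2.68% lower. Slc35d3, needed for dense granules, was at 84.7 to 253 CPM in BM and 1.35 to 14.9 CPM in spleen (5.39 ± 0.61, adjusted p = 1.46e-05). Rab38 was at 66.3 to 159 CPM in BM and 0.308 to 8.42 CPM in spleen (6.16 ± 0.78, adjusted p = 5.56e-05), and its relative Rab32 was also called. Rab27b, which docks dense granules, was at 128 to 505 CPM in BM and 3.54 to 70.6 CPM in spleen (4.10 ± 0.68, adjusted p = 0.000892). Dtnbp1 was the remaining gene called higher, and Slc17a9, the vesicular nucleotide transporter, the one called lower.

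The factors that act on this program were called higher in BM for 7 of 11 genes on average and lower for none. Over all genes tested 2.07% were called higher and 2.68% lower. The median log2 difference of the 11 factors was 1.91. Nfe2, the large subunit of the factor that drives Tubb1 and proplatelet formation, was at 151 to 195 CPM in BM and 4.26 to 73.7 CPM in spleen (3.01 ± 0.41, adjusted p = 0.000141). Tal1 was higher by 4.68 ± 0.54 (adjusted p = 2.28e-05), and Zfpm1, the cofactor of GATA1, by 4.14 ± 0.72 (adjusted p = 0.00147). Gata1, Gfi1b, Fli1 and Runx1 were the other 4. Srf, which binds CArG boxes, and its cofactors Mrtfa and Mrtfb were among those not called, with Mafg.

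The second comparison asked what sepsis changed within each tissue. None of the 10 genes was called in BM or in spleen by edgeR, DESeq2 or limma-voom, and none had an unadjusted p under 0.05 with edgeR in either tissue. Over all genes edgeR called 0% in BM, where 717 genes had an unadjusted p under 0.05 and DESeq2 called 221, and 0.158% in spleen. The median log2 difference of the 10 genes was -0.01 in BM and 0.49 in spleen, beside -0.08 over all genes tested in either tissue.

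**Figure D4:**
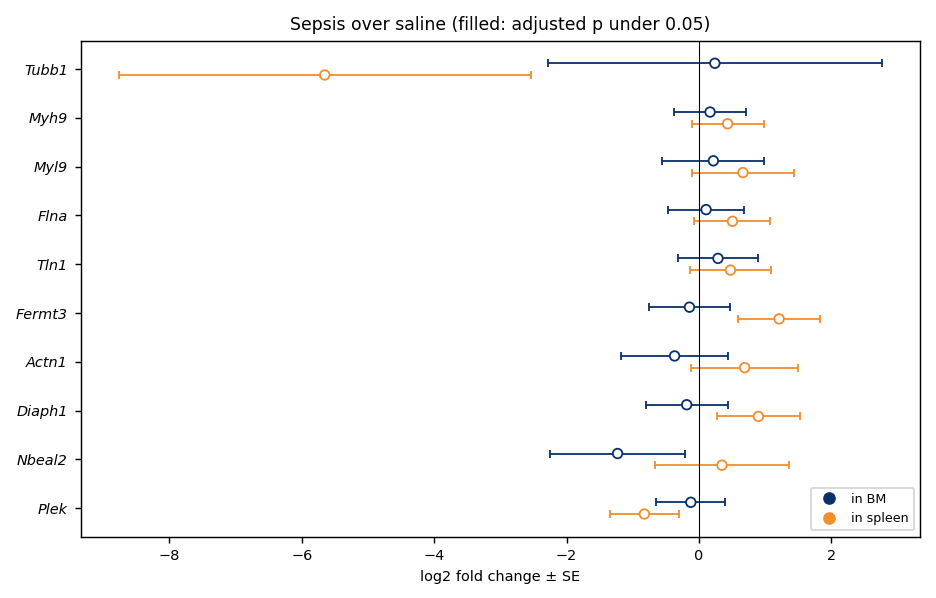
Log2 fold change of sepsis over saline ± SE (horizontal axis) for each gene in BM and in spleen, with filled points for an adjusted p under 0.05. No point is filled, and the SE of Tubb1 exceeds 2.5 in both tissues.

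In BM the estimates other than those of Nbeal2 lay between -0.37 (Actn1) and 0.29 (Tln1), with SEs of 0.52 to 2.53. Nbeal2 was the only gene whose 3 BM sepsis libraries all lay below the 3 saline ones (-1.23 ± 1.02, adjusted p = 1, unadjusted p = 0.245). In spleen Fermt3 was the only one whose sepsis libraries all lay above the saline ones, 66.6 to 87.5 CPM against 9.24 to 57.9 CPM (1.21 ± 0.62, adjusted p = 0.387). Plek went the other way in spleen without passing the test (-0.82 ± 0.52, adjusted p = 0.514). How many of all genes tested had sepsis and saline libraries apart in this way was not counted. The separations of Nbeal2 and Fermt3 are therefore given as description only. The 95% interval held 0 for each of the 10 genes in BM. In spleen it held 0 for all but Fermt3, whose interval of 0.00019 to 2.42 takes no account of the few libraries (edgeR, unadjusted p = 0.0647).

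The test of whether sepsis acted differently in the tissues called 0 of the 10 genes and 0% of all genes (1556 of them at an unadjusted p under 0.05, and 472 called with DESeq2). Of the 10 genes Fermt3 had the smallest adjusted p (0.686, at -1.35 ± 0.87).

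BM sepsis replicate 1 was the highest of the 6 BM libraries for 7 of the 10 genes, and it also had the highest summed MK markers of all libraries (48807 CPM). Spleen sepsis replicate 3 was the highest of the 6 splenic libraries for 7 of the 10 genes. That library also had Itga2b, the integrin alpha-IIb chain detected as CD41 in the sort, at 320 CPM where the other splenic libraries held 6.43 to 93.4 CPM. Gp1ba was likewise at its highest splenic level there (24.0 CPM). Its Pf4 (790 CPM) and its summed MK markers (2372 CPM) were below those of spleen saline replicate 3 (2439 and 3594 CPM).

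Spleen sepsis replicate 3 also differed in how counts depended on transcript length. Relative to the 12-library mean of each gene, its protein-coding genes with transcripts shorter than 1000 bases had a median log2 deviation of -1.38 (331 genes), and those of 6000 bases or more a median of 0.42 (757 genes). In the other 11 libraries these medians lay between -0.39 and 0.51 and between -0.19 and 0.18. Flna, Tln1, Myh9 and Nbeal2 have longest transcripts of 7433 to 8803 bases, while those of Tubb1 and Myl9 have 1406 and 1128. Fermt3, Actn1 and Diaph1, with 2988, 3734 and 5741 bases, also had their highest splenic level in spleen sepsis replicate 3. Genes of 2000 to 4000 bases had a median deviation of -0.14 in that library, and those of 4000 to 6000 bases 0.13. With offsets that remove each library's trend on length, an alternative chosen after the data were seen, the averaged tissue differences of Plek, Fermt3 and Tln1 were still called (adjusted p = 0.000319, 0.0124 and 0.00593).

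**Figure D5:**
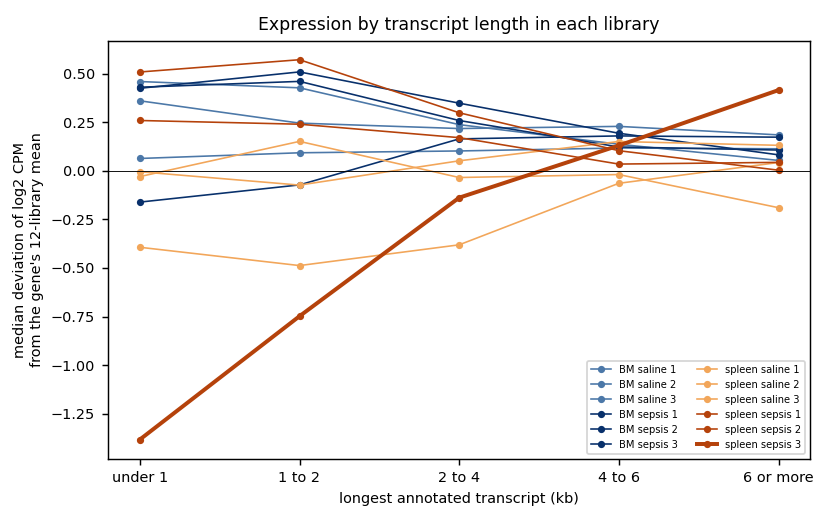
Median deviation of log2 CPM from each gene's 12-library mean (vertical axis) for protein-coding genes grouped by the longest annotated transcript in kb (horizontal axis), with 1 line per library. Spleen sepsis replicate 3, the thick line, climbs from -1.38 to 0.42.

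Neutrophil markers (10 genes) were another source of variation between libraries. They summed to 21010 CPM in spleen saline replicate 1 and 10396 CPM in spleen sepsis replicate 1. BM sepsis replicates 3 and 2 held 16681 and 10964 CPM, and the other 8 libraries 66.8 to 2250 CPM. In BM all sepsis libraries (2250 to 16681 CPM) lay above all saline libraries (71.8 to 273 CPM). Sepsis and the share of neutrophil transcripts therefore cannot be told apart in BM. The study's methods define the lineage gate by NK1.1, CD3, CD11b, F4/80 and B220, so it should remove CD11b+ neutrophils as well as B220+ B cells. The part of these transcripts in the levels of the 10 genes was not tested. Both tissues held libraries of this kind.

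The pattern over the 12 libraries was compared with that of every other gene tested, as the root-mean-square difference of centred log2 CPM. For Tubb1 the 5 nearest genes were AC124316.1, Gm39121, Krt18, Bbs10 and Gm9958 at 1.06 to 1.34 log2 units. Like Tubb1, each of these 5 had its highest splenic level in spleen saline replicate 1, and at most 0.097 CPM in any other splenic library. They were chosen by likeness over these same libraries, so the shared peak is no separate result. For the mean of the 10 genes the nearest were Creg1, Mlf2, Stx12, Nrgn and Cdkn2d at 0.307 to 0.404 log2 units. Among the 10 themselves Flna lay nearest to the mean of the others (0.50 log2 units), and Nbeal2 (1.53) and Tubb1 (2.57) lay farthest. These values describe likeness over 12 libraries, in which the genes share library depth and the tissue difference.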

How the data were processed

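The deposited table held raw read counts per gene for the 12 libraries, 1 column each. Per the labels, processing used STAR 2.7.2b, GRCm38, R 3.6.1 and DESeq2 1.26, with no roles stated. Neither the labels nor the study's methods name the counting options or annotation release. Libraries were made with SMART-Seq HT and Nextera XT, which keep no strand, so reads in exons shared with a gene on the other strand (3.7% of exonic bases in Tln1, 4.4% in Plek, 8.2% in Actn1) cannot be assigned.

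The members and gene lists were chosen with earlier results of these data known. Counts were fitted with edgeR 4.0.16 (R 4.3.3): TMM factors, filterByExpr with a minimum count of 10, and a quasi-likelihood F test with 1 mean per group over all 12 libraries, adjusted over 20263 genes with a threshold of 0.05. SE was the log2 fold change divided by the square root of F, and 95% intervals are 1.96 SEs wide on each side. P-values measure the spread between these libraries only. Levels per kb used the union of GENCODE M21 exons, and 3 reads is the limit that a count of 0 allows, for counting error only. The fit was tested on simulated data, where the share of false calls exceeded the threshold in some comparisons. Where 2 identifiers shared a symbol (Myl12b), the one with less exon overlap was used.

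Named besides the members are the 3 genes of each of 7 pathway lists with the smallest p among those called on average, paralogs, Pf4, Itga2b and Gp1ba, marker sums, and the 5 genes nearest in pattern. Itgb3, Parvb, Rab32, Dtnbp1, Slc17a9, Rac2, Diaph3, Gata1, Gfi1b, Fli1, Runx1, Srf, Mrtfa, Mrtfb, Mafg and Ilk were named after their values were seen. Alternatives were DESeq2 1.42.0, limma-voom (limma 3.58.1), other scalings, filters and samples, and each library left out.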

Additional observations from a re-analysis of the deposited data

How the results depend on the processing

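Over 60 differences of the 10 genes and 1352 alternative values of them, none that was called changed direction, and 27 that were never called changed sign at least once. After saline, 0 of the 10 genes were called, but 2 with library size alone, 2 with no filter, 1 with at least 10 counts in 6 libraries, 1 with DESeq2, 1 after thinning to equal depth, 1 with transcript length offsets (chosen after seeing the data), and 0 to 2 when 1 library was left out; the genes were Fermt3 and Plek. After sepsis, 1 gene was called, and 0 in a fit of only the 2 groups compared. On average, 3 were called, and 1 to 4 with 1 library left out: without BM sepsis replicate 1 only Plek was called, and without spleen saline replicate 1 Myl9 was called too. The 7 pathway lists had 29 genes called, 49 with library size alone, and 27 to 34 with 1 library left out. The cause was not tested. Relative to TMM, library size alone moved the averaged tissue difference of the listed genes by a median of 0.51 and relative log expression factors by -0.20 on the log2 scale. Over all genes, 962 were called on average and 2174 with DESeq2; after saline 253 and 1064, after sepsis 361 and 1238. Sepsis calls in spleen ran from 0 with limma-voom to 915 with DESeq2 around 32. Levels per kb moved by more than 1 SD in 13 of 40 cases with the longest transcript in place of all exons. Deviations of libraries with equal replicate numbers correlated at -0.06 to 0.04 over 18 pairs, and those with different numbers at -0.07 to 0.07 over 36. These correlations cannot tell which libraries, if any, shared an animal, since both ranges lie about 0. With the replicate block, 0, 1, 0, 0, 0 and 3 genes were called in the 6 comparisons, as without it, and 32 pathway genes. Tubb1 held 3 reads or fewer in 7 libraries, the deepest among them.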
